A study of Rattus norvegicus with 18 samples.

Results

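The genes Per1, Per2, Per3, Arntl (Bmal1), Clock, Cry1, Cry2, Nr1d1 (Rev-erb alpha), Nr1d2 (Rev-erb beta) and Dbp make up the core of the circadian clock and its best known outputs. These 10 genes were followed in PBMC (mononuclear cells of peripheral blood, mainly lymphocytes and monocytes, recovered on a Ficoll gradient) of 18 male Wistar rats. They were taken by name from the array files, which held 12 probes for the 10 genes among 41012 probes. Rats were 2 months old when the diets began and ate them for 4 months. The low-fat diet (LFD, 6 rats) drew 10% of its energy from fat, 20% from protein and 70% from carbohydrate, the high-fat diet (HFD, 6 rats) 60%, 20% and 20%, and the high-protein diet (HPD, 6 rats, mostly casein) 10%, 45% and 45%. LFD was eaten freely, and each day's energy intake on it set what the HFD and HPD rats were given on the following day. All 18 rats were fasted for 14 h before they were killed, and their blood was taken beforehand from the saphenous vein into heparin. The sources used here do not give the hour of the draw. RNA of each rat, labelled with Cy5, was hybridised together with an equimolar reference of all RNAs in Cy3, so every value is the log2 ratio of 1 rat to the pool. One array carries conflicting labels, HFD replicate 7 in its title and HPD in its source name, and was counted as HPD replicate 7.

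The clock of a mammalian cell is a loop of transcription and repression. Arntl and Clock pair on E-boxes of their target genes and drive Per, Cry, Nr1d1, Nr1d2 and Dbp. The PER and CRY proteins return to the nucleus and repress that pair, while the REV-ERB proteins encoded by Nr1d1 and Nr1d2 repress Arntl through ROR elements and DBP acts through D-boxes. In tissues sampled around the day, Arntl peaks roughly opposite to Per, Nr1d1 and Dbp, and Per1 also answers quickly to glucocorticoids and to signals that act through cAMP. Blood leukocytes carry such a clock. Each gene of the loop is read against Arntl below, rat by rat. The opposition of Arntl to Per, Nr1d1 and Dbp is one over the hours of the day. With the hour of the draw not given, a correlation across rats does not test it, whatever its sign.

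The sequences below show where the loop's elements lie in 3 of the genes that are read against each other, Arntl, Per2 and Nr1d1. Each is the 250 bases before a RefSeq start of the gene (build GRCr8), 5′ to 3′ on the gene's strand, with motif matches in capitals. In Arntl (chr1:176766078-176766327, plus strand) the capitals mark a ROR element that begins 20 bases before the start. In Per2 (chr9:99496994-99497243, minus strand) they mark a D-box (TTANGTAA) and then the E-box variant CACGTT. In Nr1d1 (chr10:84229455-84229704, minus strand) they mark the canonical E-box CACGTG. This window precedes the more downstream of the Nr1d1 starts, and the other Nr1d1 window (chr10:84231813-84232062) lies upstream of it.
Arntl: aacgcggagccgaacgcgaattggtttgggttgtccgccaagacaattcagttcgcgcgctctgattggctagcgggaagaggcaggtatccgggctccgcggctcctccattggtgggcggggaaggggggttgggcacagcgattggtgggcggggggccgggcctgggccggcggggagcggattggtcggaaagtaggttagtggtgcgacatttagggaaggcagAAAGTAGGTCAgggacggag
Per2: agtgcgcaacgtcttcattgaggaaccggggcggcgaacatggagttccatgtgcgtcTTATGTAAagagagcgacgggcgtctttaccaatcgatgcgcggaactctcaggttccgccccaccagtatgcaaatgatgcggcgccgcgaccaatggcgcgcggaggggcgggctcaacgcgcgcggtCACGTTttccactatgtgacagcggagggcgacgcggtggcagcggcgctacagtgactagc
Nr1d1: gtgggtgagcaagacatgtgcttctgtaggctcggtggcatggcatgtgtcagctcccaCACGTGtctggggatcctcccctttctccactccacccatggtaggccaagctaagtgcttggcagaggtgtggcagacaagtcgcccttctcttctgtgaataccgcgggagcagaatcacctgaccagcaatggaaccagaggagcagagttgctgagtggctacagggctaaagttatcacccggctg
The table held a window for 9 of the 10 genes, 11 windows in all, and Cry1 had none. On either strand of windows of this length, CACGTG stood in 5.59% of 33469 promoters and here in Nr1d1, CACGTT in 4.07% and here in Cry2, Per2 and a second Nr1d1 window, TTANGTAA in 2.04% and here in Per2, and the ROR element in 0.317% and here in Arntl. The cAMP response element TGACGTCA stood in 1.59% of promoters and in no window of these genes. No motif of this list was matched in the windows of Per1, Per3, Nr1d2, Dbp or Clock, which says only that these letters are not in those 250 bases.

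All of the loop but Clock could be measured. Of the 12 probes, 10 lay well above background in Cy5 on at least 5 of 18 arrays, 1 each for Arntl, Per1, Per2, Cry1, Cry2, Nr1d1, Nr1d2 and Dbp and 2 of the 3 for Per3. Clock (probe A_43_P15473, chr14:34247245-34248295 on rn4) did so on 4 arrays, 2 LFD, 2 HFD and 0 HPD, and in Cy3 on 0, so Clock was not well above background and is not tested. The Per3 probe A_43_P16143 did so on 2 arrays and is likewise left out. Arntl (A_44_P214873, chr1:171161969-171162028), Per1 (A_44_P114034, chr10:55867840-55868424), Per2 (A_42_P708593, chr9:90645610-90645669), Cry1 (A_44_P374708, chr7:20708985-20709044), Cry2 (A_43_P13175, chr3:76802827-76802886), Nr1d1 (A_44_P175041, chr10:87543165-87543519), Dbp (A_44_P280898, chr1:96178020-96178079) and Nr1d2 (A_44_P395572, no position listed) were above background on all 18 arrays. The Per3 probes lay at chr5:168184060-168184119 (A_44_P407318, above background on 16 arrays) and chr5:168152851-168152910 (A_44_P196198, 15 arrays). In Cy3, the pool, A_44_P407318 was above background on 16 arrays and A_44_P196198 on 8. Positions are those of the array design on rn4, and whether they are exonic was not analysed here.

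Array quality bears on these genes. Median Cy5 signal per array ran from 61.5 to 84.3 intensity units over local backgrounds of 31 to 37, and 53.1 to 63.5% of probes were well above background in Cy5. The 18 arrays lay on 5 slides, and a test for slide called 89 of 25237 probes, none of them of a clock gene (Cry1 adjusted p = 0.150 by limma). Of the markers of the labelled cells, 11 of 12 for T cells, 6 of 8 for B cells, 7 of 8 for NK cells and 7 of 8 for monocytes passed the same filter, and so did 4 of 8 for neutrophils, 6 of 8 for erythroid cells and 7 of 8 for platelets. Fewer cells of a type and less RNA per cell cannot be told apart in such mixed samples. The labels number the arrays as replicates of a diet, each from the RNA of an individual sample.

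No difference between diets was detectable in the clock genes at this spread, while single rats differed widely. No probe of a clock gene differed between diets: 0 of 30 tests (10 probes, 3 comparisons) had an adjusted p under 0.05, and 0 had an unadjusted p under 0.05. Per1 and Nr1d2 varied together from rat to rat (r = 0.840), over ranges of 5.86-fold and 4.34-fold between the lowest and the highest rat. One of the 2 Per3 probes that passed, A_44_P407318, varied with them, and the other, A_44_P196198, did not (r = -0.0588 with Per1 and -0.233 with Nr1d2). Per1 and Per3 (probe A_44_P407318) did not run against Arntl. Their correlations with it were positive, 0.538 and 0.492, and those of Per2 and Dbp were -0.259 and -0.172. None of these 4 passed the adjusted threshold.

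Over all 25237 probes, 0% were called between the diets by the F test, and likewise 0% in each comparison of a pair of diets (limma, Benjamini-Hochberg, threshold 0.05). At an unadjusted p under 0.05 stood 2.3% of probes for any diet, 2.01% for HFD vs LFD, 2.84% for HPD vs LFD and 3.02% for HPD vs HFD. Against those shares, 0 of 30 tests of clock gene probes is near the background and is no result about the clock genes.

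Arntl, the activator of the loop, had the smallest spread of the measured genes. Its log2 ratio ran from -0.14 to 0.45 in LFD (median 0.12), from -0.34 to 0.28 in HFD (median -0.06) and from -0.08 to 0.33 in HPD (median 0.06). The 3 diets overlapped throughout. The LFD mean was highest, and HFD differed from it by -0.16 ± 0.13 (SE, n = 6 and 6; 95% interval -0.43 to 0.11, unadjusted p = 0.217 by limma).

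Per1, the period gene that responds fastest to outside signals, ran from -1.57 to 0.39 in LFD (median 0.15), from -0.70 to 0.98 in HFD (median -0.34) and from -1.39 to 0.79 in HPD (median -0.62). HPD had the lowest mean, -0.52 ± 0.80 (SD, n = 6), yet HPD replicate 2 was the second highest of all rats and the diets overlapped. The HPD vs LFD difference was -0.36 ± 0.39 (SE, log2; 95% interval -1.18 to 0.46, unadjusted p = 0.367 by limma). With the slide as a block it was -0.69 (unadjusted p = 0.167).

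Per2, the period gene central to the repressor complex, ran from -0.97 to 0.56 in LFD (median -0.02), from -0.30 to 0.31 in HFD (median 0.15) and from -0.47 to 0.38 in HPD (median -0.00). LFD replicate 4 was the lowest rat. HFD exceeded LFD by 0.25 ± 0.21 (SE, log2; 95% interval -0.18 to 0.68, unadjusted p = 0.240 by limma).

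Per3, the third period gene, spread most by 1 of its tested probes, and less than Per1 by the other (SD 0.62 against 0.70). The probe above background on more arrays (A_44_P407318) ran from -3.35 to 1.38 in LFD (median 0.34), from -0.54 to 0.70 in HFD (median -0.21) and from -1.42 to 0.84 in HPD (median -0.13). The lowest rat of LFD (replicate 2, -3.35) and of HPD (replicate 7, -1.42) were the 2 arrays on which this probe was not well above background, so those ratios rest on a Cy5 signal that was not measured well. Differences between diets lay between -0.08 and 0.07 (SE 0.59). The other Per3 probe (A_44_P196198) gave differences of 0.06, 0.19 and 0.13 (HFD vs LFD, HPD vs LFD, HPD vs HFD; SE 0.36) and correlated with the first at -0.441 over the 18 rats. The Per3 probes thus disagree, and each Per3 result below is that of A_44_P407318 unless the other is named.

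The cryptochromes, the partners of the PER proteins in repression, were most variable in LFD. Cry1 ran from -1.0 to 0.90 in LFD (median -0.17), from -0.37 to 0.22 in HFD (median -0.05) and from -0.26 to 0.17 in HPD (median 0.14). Cry2 ran from -0.996 to 0.75 in LFD (median -0.16), from -0.29 to 0.14 in HFD (median 0.03) and from -0.77 to 0.26 in HPD (median -0.01). The values of all 3 diets overlapped in both genes. The largest of the 6 differences was Cry1 in HPD vs LFD, 0.26 ± 0.23 (SE, log2; unadjusted p = 0.267 by limma), and without slide 1 it was -0.07.

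Nr1d1, the repressor of Arntl, came closest to a difference. Its log2 ratio ran from -0.08 to 0.76 in LFD (median 0.27), from -0.29 to 0.33 in HFD (median -0.17) and from -0.79 to 0.66 in HPD (median 0.10). LFD lay higher, with 1 of 6 HFD rats and 2 of 6 HPD rats above the LFD mean of 0.31, but the groups overlapped. HFD differed from LFD by -0.41 ± 0.23 (SE, log2; 95% interval -0.89 to 0.06, 0.75-fold, unadjusted p = 0.0857, adjusted p = 0.9999 by limma) and HPD by -0.36 ± 0.23 (interval -0.84 to 0.12, unadjusted p = 0.134). Within slides that held both diets, HFD minus LFD was -0.17, -0.52 and -0.77, and HPD minus LFD was -1.10 and -0.10. These keep 1 sign, at a p that misses the threshold.

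Nr1d2, its paralog, ran from -1.28 to 0.57 in LFD (median 0.25), from -0.37 to 0.60 in HFD (median -0.18) and from -1.26 to 0.84 in HPD (median -0.37). Its lowest rats, LFD replicate 2 and HPD replicate 7, were those in which Per3 was lowest. HPD differed from LFD by -0.28 ± 0.34 (SE, log2; unadjusted p = 0.423 by limma).

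Dbp, the D-box factor driven directly by the Arntl and Clock pair, ran from -0.12 to 0.15 in LFD (median -0.04), from -0.46 to 0.24 in HFD (median 0.00) and from -0.41 to 0.40 in HPD (median 0.14). LFD was the tightest group, with an SD of 0.11 against 0.28 in HFD and 0.31 in HPD (n = 6 each, difference of spread not tested). HPD exceeded HFD by 0.16 ± 0.15 (SE, log2; 95% interval -0.15 to 0.47, unadjusted p = 0.297 by limma).

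**Figure D1:**
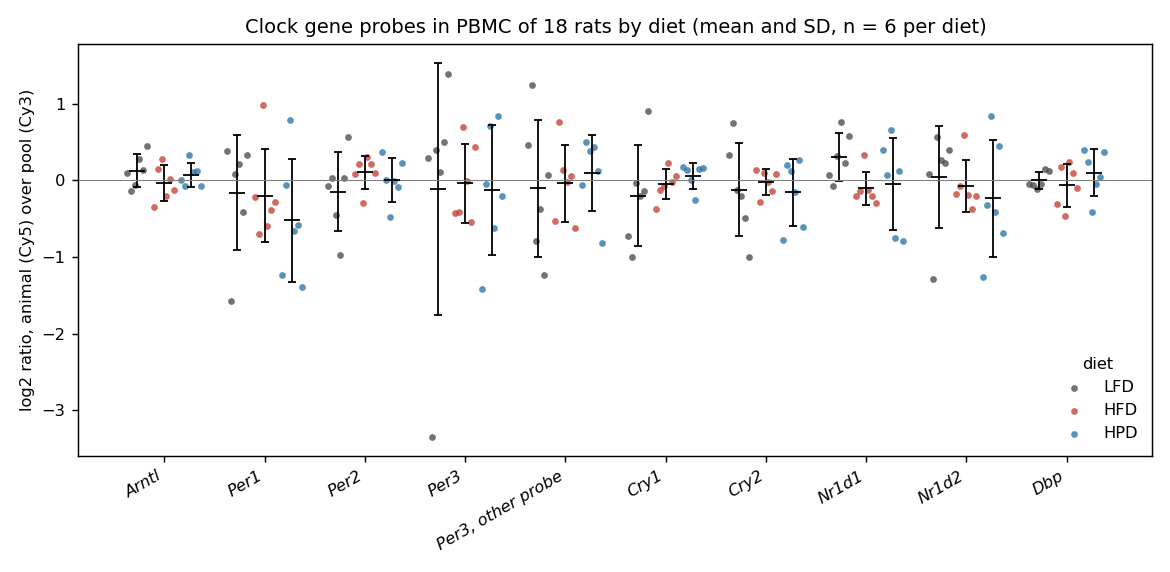
Log2 ratio of each rat to the pool (y axis) for the 10 clock gene probes above background (x axis), 1 point per rat, coloured by diet, with mean and SD of 6 rats in black. The diets overlap for every probe, and Per3 in LFD has the widest bar because of LFD replicate 2 at -3.35.

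**Figure D2:**
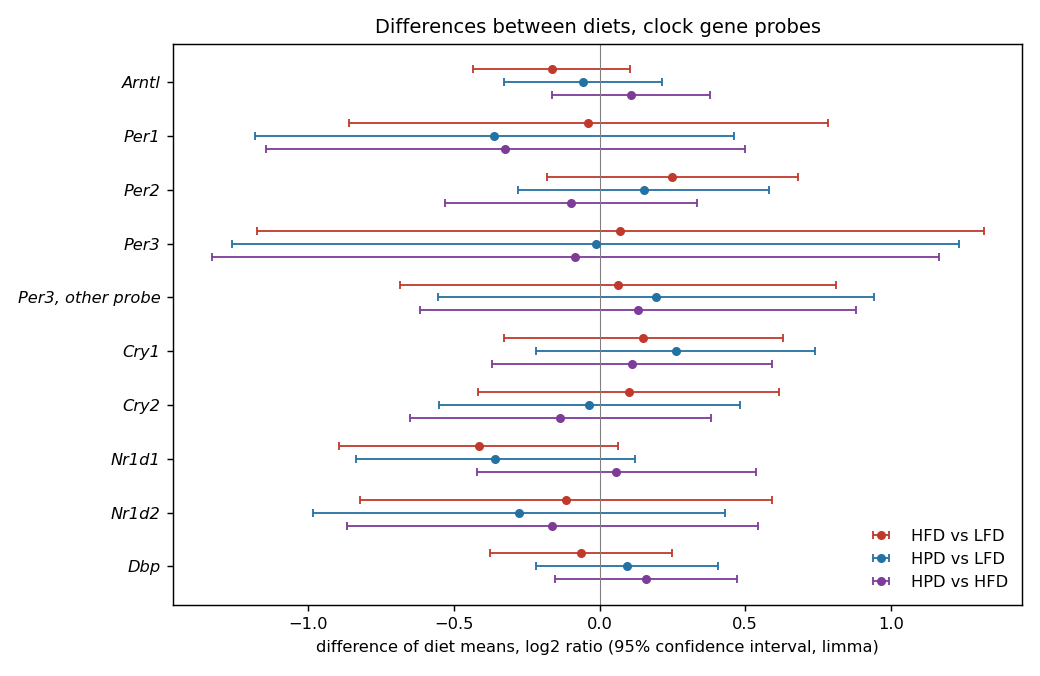
Difference of diet means in log2 ratio (x axis) with 95% confidence interval from limma for each clock gene probe (y axis), 3 comparisons per probe. All 30 intervals include 0, and Nr1d1 in HFD vs LFD, from -0.89 to 0.06, comes closest to leaving it.

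The spread between rats set these intervals. Over 18 rats the SD of the log2 ratio was 1.04 for Per3, 0.70 for Per1, 0.59 for Nr1d2, 0.43 for Nr1d1, 0.42 for Cry2, 0.40 for Cry1, 0.36 for Per2, 0.24 for Dbp and 0.20 for Arntl, where the median of all tested probes was 0.36. Per3 stood above 98.3% and Per1 above 89.1% of tested probes in this spread, but the Per3 value includes the -3.35 of LFD replicate 2, which was not well above background, and the other Per3 probe, with an SD of 0.62, stood above 83.8%. By contrast, Arntl stood above 16.8% and Dbp above 24.8%. The ratios of Per1, both Per3 probes and Nr1d2 thus varied more between arrays than those of most probes, and those of Arntl and Dbp less. Median Cy5 was low for A_44_P407318 (44.0), A_44_P196198 (31.5) and Nr1d2 (53.2), against 528 for Per1, 874 for Arntl and 1774 for Dbp. The part of signal strength in this spread was not tested. The ranking is of ratios to the pool and says nothing of levels.

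Whether Per and Dbp run against Arntl across rats was tested by correlation, for all 36 pairs of the 9 measured genes (Pearson's r and Spearman's rho with permutation p, Benjamini-Hochberg over the 36 pairs). Per1 with Arntl had r = 0.538 (permutation p = 0.0217, adjusted p = 0.0651) and rho = 0.486 (adjusted p = 0.0863). Without the 2 rats farthest from the Arntl median r was 0.618, and it was positive within each diet, 0.652 in LFD, 0.496 in HFD and 0.722 in HPD. Taken as deviations from the slide mean it was 0.450 (permutation p = 0.110), and as deviations from the diet mean 0.597, where its adjusted p was 0.0407. Per1 therefore did not run against Arntl in these rats, and whether the positive value is called turns on the setting.

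Per3 with Arntl had r = 0.492 (permutation p = 0.0364, adjusted p = 0.0867) and rho = 0.560 (adjusted p = 0.0660). Its r was 0.459 within slides and 0.423 without the 2 farthest rats. These values are those of probe A_44_P407318. With the other Per3 probe, A_44_P196198, r with Arntl was also positive, but weaker, and was not called. Per2, in contrast, had r = -0.259 (adjusted p = 0.389) and rho = -0.319 (adjusted p = 0.295). Without LFD replicate 6 and HFD replicate 1, the 2 rats farthest from the Arntl median, Per2 with Arntl was -0.603 (permutation p = 0.0116). The value was thus negative with and without those rats. Its adjusted p of 0.0494 sets this p among those of the other pairs in all 18 rats. It is not an adjustment within the smaller set, so no call is drawn from it. By diet it was 0.198 in LFD, -0.521 in HFD and -0.837 in HPD.

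Dbp with Arntl had r = -0.172 (adjusted p = 0.546) and rho = -0.139 (adjusted p = 0.718), -0.183 within slides and -0.540 without the 2 farthest rats. Within diets it was 0.634 in LFD, -0.142 in HFD and -0.939 in HPD. Among the 108 correlations within a diet (36 pairs, 3 diets, n = 6 each) 0 passed adjustment, 15 had an unadjusted exact p under 0.05 and the smallest p that 6 rats allow is 0.00139, and Dbp with Arntl in HPD had an exact p of 0.0139 (adjusted p = 0.188). Whether the diets differ in this relation was not tested.

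**Figure D3:**
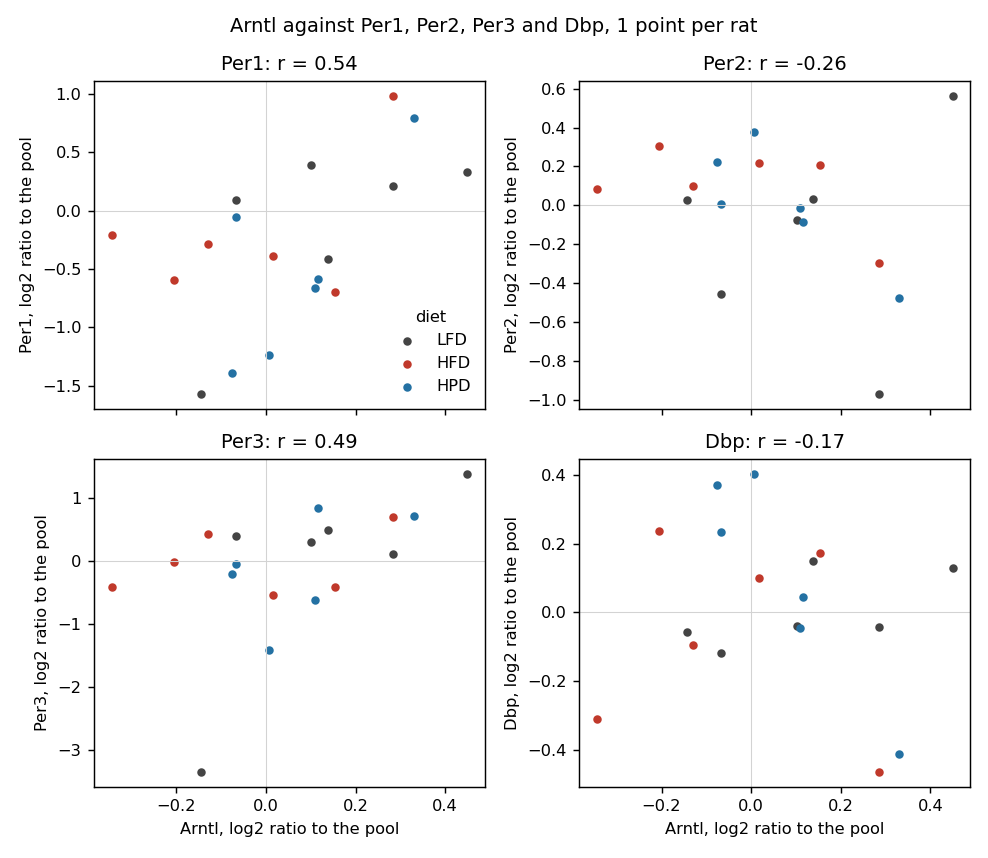
Log2 ratio of Arntl (x axis) against Per1, Per2, Per3 and Dbp (y axes), 1 point per rat coloured by diet. Per1 and Per3 (probe A_44_P407318) rise with Arntl (r = 0.54 and 0.49), while Per2 and Dbp show weak negative values (r = -0.26 and -0.17).

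The REV-ERB genes, which repress Arntl, also stood on its side. Nr1d1 with Arntl had r = 0.576 (permutation p = 0.0126, adjusted p = 0.0549; rho 0.631, adjusted p = 0.0360) and Nr1d2 with Arntl r = 0.558 (permutation p = 0.0164, adjusted p = 0.0590; rho 0.641, adjusted p = 0.0360). Nr1d2 and Arntl lay on the same side of their means in 16 of 18 rats. Within slides the 2 values were 0.351 and 0.517. Cry1 and Cry2 with Arntl had r = 0.334 and -0.362 (adjusted p = 0.275 and 0.253). Of 25051 other probes, 5% had an r with Arntl above 0.525, and Nr1d1 and Nr1d2 exceeded 97.1% and 96.4% of them.

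Per1, Nr1d2 and the Per3 probe A_44_P407318 varied together. Per1 with Nr1d2 had r = 0.840 (permutation p = 5e-05, adjusted p = 0.0009; rho 0.767, adjusted p = 0.0065), Per3 with Nr1d2 r = 0.848 (permutation p = 1e-05, the smallest the resamples can give, adjusted p = 0.00036; rho 0.847) and Per1 with Per3 r = 0.715 (permutation p = 0.00041, adjusted p = 0.00492; rho 0.664). Some rats lay toward the same end for all 3. LFD replicate 2 was low for Per1 (-1.57), Nr1d2 (-1.28) and Per3 (-3.35), and HPD replicate 7 was low for all 3 (-1.23, -1.26 and -1.42). HFD replicate 3 (0.98, 0.60 and 0.70) and HPD replicate 2 (0.79, 0.84 and 0.71) were high for all 3. The ends were not the same throughout. Per3 was highest in LFD replicate 6 (1.38) and HPD replicate 4 (0.84), and HPD replicate 5 had Per1 at -1.39 with Per3 at -0.20.

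These 3 correlations were called in all 18 fits that leave out 1 rat, with r no lower than 0.647, and were positive in each diet, from 0.629 to 0.955. Within slides they were 0.896, 0.852 and 0.758. Without the 2 arrays on which Per3 was not above background they were 0.754, 0.758 and 0.552, and the last of these, Per1 with Per3, then had an adjusted p of 0.0806. Per1 with Per3 also lost its call without slide 1 (adjusted p = 0.0799) and with the replicate number as a block (adjusted p = 0.129). With that block Per1 with Nr1d2 had an adjusted p of 0.0519. Without LFD replicate 2 and HFD replicate 3, the 2 rats farthest from the Per1 median, Per1 with Per3 was 0.628 (permutation p = 0.00956). Its adjusted p of 0.0549 was again set among the other pairs in all 18 rats. Per1 with Nr1d2 exceeded 99.9% of the 25051 probes set against Per1. With the other Per3 probe, Per3 with Nr1d2 was -0.233 and Per1 with Per3 was -0.0588, so the 2 Per3 relations belong to 1 probe.

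**Figure D4:**
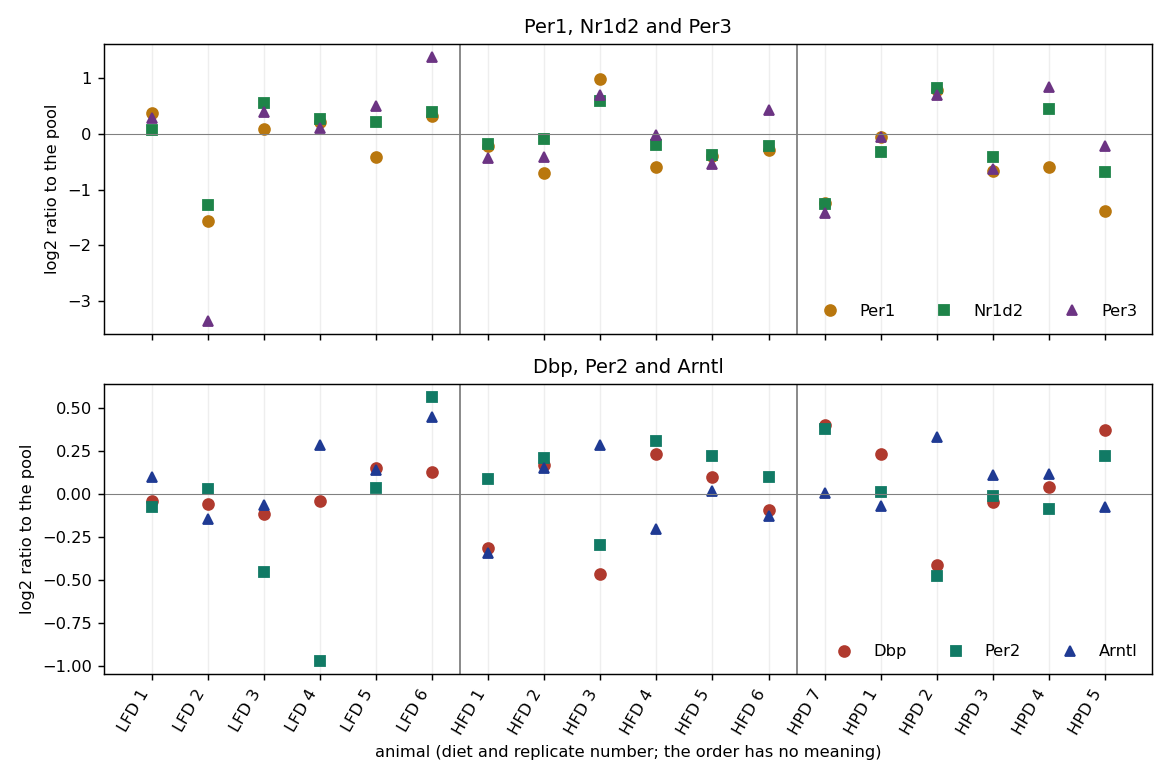
Log2 ratio to the pool (y axis) of Per1, Nr1d2 and Per3 (upper panel) and of Dbp, Per2 and Arntl (lower panel) in each of 18 rats (x axis), grouped by diet. The 3 genes of the upper panel fall together in LFD 2 and HPD 7 and rise together in HFD 3 and HPD 2, where Dbp is at its lowest (-0.46 and -0.41).

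Dbp ran against Per1, and Per2 kept to the side of Dbp by rank. Per1 with Dbp had r = -0.658 (permutation p = 0.00298, adjusted p = 0.0215; rho -0.552, adjusted p = 0.0660) and was -0.861 in HFD, -0.843 in HPD and 0.0934 in LFD. Within slides it was -0.715, with an adjusted p of 0.0687. Per2 with Dbp had r = 0.566 (permutation p = 0.0135, adjusted p = 0.0549; rho 0.666, adjusted p = 0.0317), positive in each diet (0.623, 0.903 and 0.953 in LFD, HFD and HPD). HFD replicate 3 and HPD replicate 2, the highest rats for Per1, were the lowest for Dbp (-0.46 and -0.41). Per1 with Per2 had r = -0.481 (adjusted p = 0.0930), so period genes 1 and 2 did not move alike.

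Cry1 with Cry2 was the second negative pair called, r = -0.711 (permutation p = 0.00136, adjusted p = 0.0122), with rho = -0.408 (adjusted p = 0.171). It rested on LFD replicates 2 and 6, without which r was -0.324. As deviations from the slide mean it was -0.557 (adjusted p = 0.278), and without slide 1 -0.508 (adjusted p = 0.134). Array brightness moved with it. Cry1 correlated with the median Cy5 signal of the array at -0.779 (adjusted p = 0.00468 over 36 relations) and Cry2 at 0.681 (adjusted p = 0.0335), as did Per3 at -0.670 (adjusted p = 0.0335). No other of the 36 relations passed by r, and none passed by rho (adjusted p = 0.121, 0.121 and 0.109 for Cry1, Cry2 and Per3). Within slides the r of Cry1, Cry2 and Per3 were -0.711, 0.735 and -0.464 (permutation p = 0.112, 0.00523 and 0.261). Arntl had -0.612 with the share of probes well above background (adjusted p = 0.0520, within slides -0.425). With the median Cy3 signal it had -0.601 (adjusted p = 0.0536, within slides -0.377). The part of array quality in the Arntl correlations was not tested. After a straight line on the median Cy5 signal, Cry1 with Cry2 was -0.393 (adjusted p = 0.185), while Per1 with Nr1d2 was 0.851, Per3 with Nr1d2 was 0.812 and Per1 with Dbp was -0.786. Arntl with Per3 then fell to 0.253. In all, 5 of 36 pairs were called by r and 7 by rho.

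**Figure D5:**
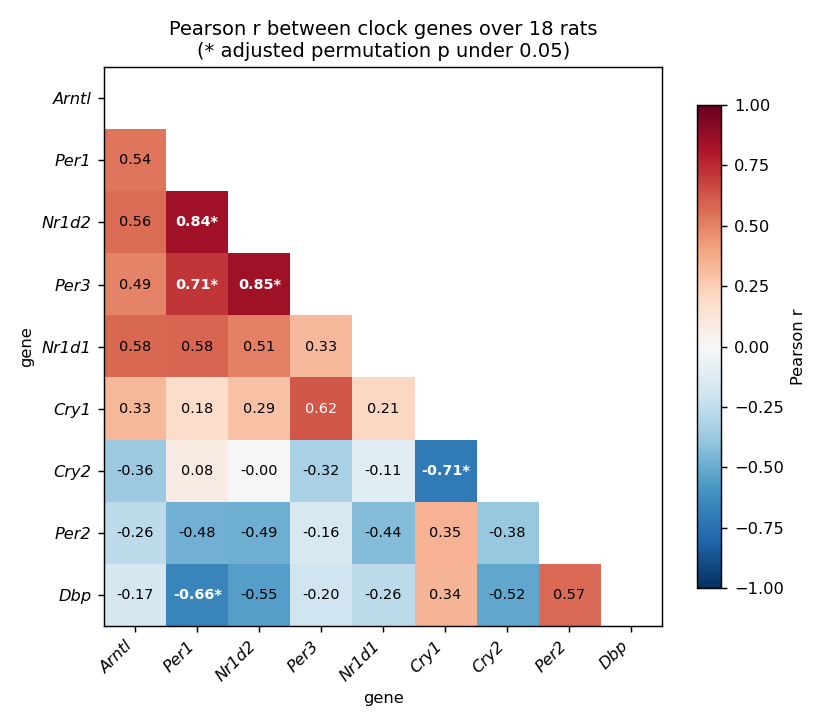
Pearson r over 18 rats for each of the 36 pairs of 9 clock genes (axes: genes; colour: r from -1 to 1), with an asterisk where the adjusted permutation p was under 0.05. Per1, Nr1d2 and Per3 share r of 0.71 to 0.85, and the negative pairs called are Per1 with Dbp and Cry1 with Cry2.

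Other clock genes were read from 3 lists. Of the paralogs and loop partners, 9 of 13 passed the filter and 0 were called for any diet. Their median difference was 0.12 in HFD vs LFD, -0.04 in HPD vs LFD and -0.07 in HPD vs HFD, where all tested probes had medians of 0.01, 0.02 and 0.01. Npas2, the substitute for Clock, had the smallest p of the list (unadjusted p = 0.0510 by limma's F test, HPD vs HFD -0.66). Next came Arntl2 (unadjusted p = 0.0964 by limma) and Bhlhe40, which encodes the E-box repressor DEC1 (unadjusted p = 0.112 by limma). Rora, which activates Arntl through the same element that REV-ERB uses, had the largest r with Arntl in the list, 0.647, before Timeless, 0.362, and Arntl2, 0.302. As chosen extremes these r carry no p.

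Of the kinases, phosphatases and ubiquitin ligases that act on clock proteins, 12 of 15 passed and 0 were called. The smallest unadjusted p by limma's F test were those of Btrc (0.194), Csnk1e (0.199) and Gsk3b (0.345). Usp2, a deubiquitinase with rhythmic expression, had the largest r with Arntl, 0.500, and followed Per1 at 0.840, though it was above background on only 8 arrays, while Csnk1a1 and Gsk3b had -0.486 and -0.406 with Arntl. The list mean ran against Dbp at r = -0.876 (permutation p = 1e-05, the smallest possible, adjusted p = 0.00108 over 108 relations; rho -0.831; 10 of 12 members below 0), and was -0.907 within slides and -0.895 within diets. It moved with Per1 at 0.685 (adjusted p = 0.0346).

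Of rhythmic output genes and modulators, 12 of 15 passed and 0 were called for any diet. The smallest p were those of Por, which supplies electrons to cytochromes P450 (unadjusted p = 0.134 by limma's F test), Id2 (0.194) and Wdr5 (0.226). Por, Nono and Ppara had the largest r with Arntl, 0.553, 0.444 and 0.227. The list mean had r = -0.656 with Dbp (adjusted p = 0.0630), which missed the threshold.

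Lists of genes that answer to hormones or handling were set beside Per1. Immediate early genes (Fos, Fosb, Jun, Junb, Egr1, Egr2, Ier2, Atf3, Nr4a1 and Btg2, induced within minutes of a stimulus) were all measured, and 0 of 10 were called between diets. Their mean log2 ratio ran from -0.82 to 0.26 in LFD (median 0.04), from -0.30 to 0.41 in HFD (median 0.15) and from -0.67 to 0.42 in HPD (median -0.30). It was lowest in LFD replicate 2 (-0.82) and HPD replicate 7 (-0.67), the rats in which Nr1d2 and Per3 were lowest too. With Per1 it had r = 0.766 (permutation p = 0.00025, adjusted p = 0.0135; rho 0.692, adjusted p = 0.114), with Nr1d2 0.728 (adjusted p = 0.0234) and with Per3 0.702 (adjusted p = 0.0254), and all 10 genes had a positive r with Per1, from 0.174 for Egr2 to 0.801 for Btg2. Within slides the r with Per1 was 0.798, and without the 2 rats of most extreme list mean 0.618. Its part in the Per1, Nr1d2 and Per3 relations was not tested.

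Of 7 listed glucocorticoid targets 6 passed, 0 were called between diets, and their mean had r = 0.336 with Per1 and 4 of 6 genes had a positive r. Fkbp5, which encodes a chaperone strongly induced by glucocorticoids, had -0.394 with Per1, whereas Klf9, which is also in the output list, and Sgk1 had 0.585 and 0.560. With Dbp the mean had r = -0.486 (adjusted p = 0.212).

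Markers of blood cell types were compared in the same way, 63 relations of 7 lists with 9 clock genes. None passed adjustment and 6 had an unadjusted p under 0.05, all of them of Cry1, Cry2 or Per3: NK cell with Cry1 (-0.624), erythroid with Cry1 (-0.593) and with Cry2 (0.554), NK cell with Per3 (-0.501), and T cell with Cry2 (0.491) and with Cry1 (-0.473). Per1 had r between -0.214 and 0.134 with the 7 lists. Erythroid genes, 6 of 8 measured, ran from -1.29 to 1.03 in LFD, -1.58 to 1.01 in HFD and -1.57 to -0.17 in HPD in their mean log2 ratio, and platelet genes, 7 of 8 measured, ran from -2.14 to 1.51 over the 18 rats. Their part in the clock gene values was not tested.

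Likeness to single genes was read over 18 rats among 10295 named genes with 1 probe each. The genes most like Arntl were Actn3 (r = 0.850), Tmem115 (0.842), Brf1 (0.825), Chpf (0.823) and Ddx54 (0.811), and the least like it Abi1 (-0.789), Idh1 (-0.785), Dusp3 (-0.776), Parp4 (-0.758) and Pon2 (-0.755). No gene of the lists above is among these 10. For Dbp the high end held Bub3 (0.931), Rccd1 (0.925), Zfp260 (0.895) and Trmt10b (0.886), and the lowest were Tp53inp2 (-0.855), Snap23 (-0.849), Morf4l1 (-0.771), Bhlhe40 (-0.765) and Stk24 (-0.758). Bhlhe40, whose protein competes for E-boxes, is the only gene of the lists above among those named for Dbp. For Per1, chosen after its values were seen, the highest were Ppp1r15a (0.899), Slc30a1 (0.898), Nr4a2 (0.893), Fbxo30 (0.885) and Snx18 (0.880), and the lowest Wdr5b (-0.915), Tmem60 (-0.912), Cptp (-0.892), Fkbpl (-0.887) and Trappc2 (-0.880).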

How the data were processed

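Values come from 2-colour Agilent arrays whose scans were read, per the submitters' processing notes, by version 10.5.1.1 of Agilent Feature Extraction. The deposited scanner files give processed signals as linear intensity, already corrected for background and dye by that software, and 0 or 1 flags, per the file headers. The authors' separate table (20256 probes, median 8.40 on each array) is on a log2 scale of unknown centring. Differences between arrays in it followed those of the scanner log2 ratios with r = 0.885 and a slope of 0.70, and it serves as an alternative. From the intensities the log2 ratio of Cy5 over Cy3 was taken, feature outliers were dropped and repeated spots averaged, and the 25237 of 41012 probes whose Cy5 was well above background on 5 or more arrays were tested with limma 3.58.1 (R 4.3.3), diet means as the model, Benjamini-Hochberg over all probes, threshold 0.05. Correlations used 100000 resamples (scipy 1.17.1), two-sided, and all 720 orders within a diet. The fit was tested on simulated data. Precision is limited by how many arrays there are. The 10 genes are all named, and of each clock list the 3 genes with the smallest F p and the 3 with the largest absolute r with Arntl; likeness names the 5 highest and 5 lowest, of which 1 is not reported here. Members and lists were chosen with earlier results of these data known. Gene names of other probes were updated through RefSeq (GRCr8), which matched 19552 probes. P-values measure the spread between these arrays, which the labels number as replicates of a diet.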

Additional observations from a re-analysis of the deposited data

Results flagged for a closer look

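In 6 of the 30 groups of 6 rats (10 probes, 3 diets), 1 rat stood apart by Dixon's test at the 95% level, where chance gives about 1 group in 20. HFD replicate 3 was highest of HFD for Per1 (0.98, the next rat at -0.21), Nr1d2 (0.60, next -0.08) and Nr1d1 (0.33, next -0.12) and lowest for Per2 (-0.30, next 0.08). LFD replicate 2 was lowest of LFD for Nr1d2 (-1.28, next 0.08) and for the Per3 probe A_44_P407318 (-3.35, next 0.11), where that probe was not well above background. The flags thus fell on 2 rats, and the genes flagged in a rat are correlated with each other, so they are not 6 separate observations.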

How the results depend on the processing

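No clock gene probe was called between diets in any of 35 settings, and of the 30 differences 10 kept their sign and 20 changed it at least once. The count of probes called was 0 in all 34 alternatives for any diet, HFD vs LFD and HPD vs HFD, with 310 to 1837, 261 to 1740 and 503 to 1870 probes at an unadjusted p under 0.05 by limma. For HPD vs LFD it was 2 with array quality weights, and 0 to 1 when 1 rat was left out (1 without LFD replicate 2). Arntl with Per1 passed the threshold with HFD replicates 1 and 6, the most alike arrays, averaged (0.596), in the authors' table (0.560) and as deviations from diet means (0.597). It ran from 0.469 to 0.631 with 1 rat left out, called only without HFD replicate 1. Without the 2 rats farthest from the Arntl median, Arntl with Per1 was 0.618 and Arntl with Per2 -0.603. Their adjusted p was set among the other pairs in all 18 rats, so no call is drawn from either. Arntl with Per3 passed in the authors' table (0.573). Arntl with Dbp turned positive in that table (0.137, adjusted p = 0.688). With the other Per3 probe, Per1 with Per3 was -0.0588 and Per3 with Nr1d2 -0.233. Per1 with Dbp lost its call without HFD replicate 3 (-0.560), HPD replicate 2 (-0.589) or HPD replicate 5 (-0.601), in the authors' table (-0.424) and in Cy5 alone (-0.490), and Cry1 with Cry2 lost its call without LFD replicate 2 (-0.595) or 6 (-0.578), within slides (-0.557), without slide 1 (-0.508) and in Cy5 alone (-0.526). The causes were not tested. Leaving out the 2 arrays dim for Per3 and the line on median Cy5 were chosen after seeing the data.

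No pairing of the rats by replicate number was seen. The 16 same-numbered pairs correlated from -0.317 to 0.228 (median 0.013, 6 over 0.1). The 92 differently numbered pairs correlated from -0.354 to 0.422 (median -0.024, 30 over 0.1). With the replicate number as a block, 0 probes were called between diets, 4 gene pairs were called against 5 without it (1 of those 5 among them), Arntl with Per1 was 0.702 (adjusted p = 0.0458) and Per1 with Nr1d2 was 0.867 (adjusted p = 0.0519).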
